A study of Mus musculus with 36 samples.

Results

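TBP binding was examined at 9 immediate early genes: Egr1, Fos, Fosb, Jun, Junb, Jund, Ier2, Atf3 and Dusp1. The genes were chosen by name, with earlier results of these data known, so their bound counts are descriptions and not an independent finding. They were taken at their mm10 RefSeq positions and are 9 of the 21900 protein-coding genes in the gene table. A gene is called bound when a peak summit of TBP lay 500 bp or less from either of its ends, and summits inside it or up to 10 kb away were recorded as further summits. The study profiled TFIID, the promoter complex built from the TATA-binding protein (TBP) and a set of TBP-associated factors (TAFs), by CUT&RUN in mouse embryonic stem (ES) cells. In CUT&RUN a nuclease, tethered to the antibody, releases the DNA next to the protein. RT7 cells (R26CreERT2/+;Taf7flox/flox) and RT10 cells (R26CreERT2/+;Taf10flox/flox) received 4-hydroxytamoxifen (4-OHT), to delete the floxed gene, or ethanol (EtOH) from day 1 to day 3. All groups, the EtOH groups included, thus carried the inducible Cre from the Rosa26 locus and the floxed alleles. They also shared a medium with fetal calf serum, leukaemia inhibitory factor, CHIR99021, an inhibitor of the kinase GSK3, and PD0325901, an inhibitor of the MEK kinases. Each line and treatment had 2 TBP libraries and 1 IgG control by the library titles. Each had 1 deposited list of TBP summits, so no difference between treatments has a replicate check. TAF7, TAF10 and TAF12 libraries were not analysed here, and the loss of the deleted subunit was not checked.

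Immediate early genes are transcribed within minutes of a stimulus, without new protein synthesis, and many of their promoters carry a paused RNA polymerase II. Growth factors and serum reach them through MEK and ERK kinases, which act on serum response factor and its ETS partners, and cyclic AMP and calcium reach them through CREB. Fos and Jun family proteins pair to form the transcription factor AP-1, Egr1 and Atf3 encode further transcription factors, Ier2 encodes a short-lived nuclear protein, and Dusp1 encodes a phosphatase that switches off MAP kinases.

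Most members were bound in every list. Of the 9 genes, 8 were bound in RT7 EtOH and 7 in RT7 4-OHT, against 5.32% and 2.74% of all protein-coding genes. In RT10, 7 were bound in EtOH and 7 in 4-OHT, against 5.96% and 3.87%. Egr1, Fos, Fosb, Junb, Ier2 and Dusp1 were bound in all 4 lists, which held for 1.95% of protein-coding genes. Jun was bound in 3 lists and not in RT10 4-OHT, Atf3 in RT7 EtOH alone, and Jund in RT10 4-OHT alone. In RT7, 7 of the 8 members bound in EtOH were also bound in 4-OHT, where 44.9% of all bound protein-coding genes were. In RT10 it was 6 of 7, where 51.6% of all bound genes were. These all-gene shares were not matched on score. The median bound member scored above 85.2% of the RT7 EtOH list and 93.3% of the RT10 EtOH list. For all bound protein-coding genes these medians were 52.4% and 53.4%. Whether members were kept more often than other genes of like score was not tested. Where a list has no summit, the authors' caller reported no peak, which is not a measurement that TBP was absent. The counts moved with the limits set. With a score of at least 10, 3 members were bound in RT7 4-OHT. With 250 bp in place of 500 bp, 4 were bound in RT10 4-OHT. At 250 bp, 7 were bound in RT7 EtOH and 5 in RT7 4-OHT, and 4 were in both. The shares of all protein-coding genes under these limits are not given here. Whether members moved more than other genes was therefore not tested.

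Several of these promoters carry short sequences known for binding TBP or inducible factors, and 6 stretches just upstream of annotated starts are shown so that they can be set beside the summits. They are RefSeq sequences of GRCm38.p6, the assembly of mm10, read 5′ to 3′ along the gene and ending at the base before the start. Capitals mark TATAAA (the TATA box, which contains the shorter motif TATAA), the CCAAT box, the GC box GGGCGG and the core TGACG of cyclic AMP response elements. Both strands were searched, so the GC box also appears as CCGCCC and the response element core as CGTCA. The 6 stretches are chr12:85473640-85473889 (+ strand) for Fos, chr7:19310046-19310175 (- strand) for Fosb, chr4:95052223-95052352 (- strand) for Jun, chr8:84978749-84978878 (- strand) for Junb, chr1:191183334-191183463 (- strand) for Atf3 and chr17:26508473-26508722 (- strand) for Dusp1.
Fos: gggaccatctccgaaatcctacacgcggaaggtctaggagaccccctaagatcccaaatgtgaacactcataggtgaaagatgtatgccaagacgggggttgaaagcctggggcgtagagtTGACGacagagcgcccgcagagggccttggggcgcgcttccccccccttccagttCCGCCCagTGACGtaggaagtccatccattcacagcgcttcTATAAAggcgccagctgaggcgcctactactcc
Fosb: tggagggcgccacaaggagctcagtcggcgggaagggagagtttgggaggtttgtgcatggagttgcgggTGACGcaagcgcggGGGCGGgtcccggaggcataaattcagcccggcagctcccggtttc
Jun: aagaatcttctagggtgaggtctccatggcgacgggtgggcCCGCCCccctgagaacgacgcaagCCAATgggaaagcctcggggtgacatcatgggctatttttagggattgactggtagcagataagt
Junb: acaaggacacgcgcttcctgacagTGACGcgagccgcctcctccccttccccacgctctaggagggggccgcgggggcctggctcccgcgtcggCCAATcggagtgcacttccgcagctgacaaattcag
Atf3: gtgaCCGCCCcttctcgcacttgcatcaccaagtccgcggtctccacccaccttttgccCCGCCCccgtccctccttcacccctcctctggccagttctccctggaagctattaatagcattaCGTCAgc
Dusp1: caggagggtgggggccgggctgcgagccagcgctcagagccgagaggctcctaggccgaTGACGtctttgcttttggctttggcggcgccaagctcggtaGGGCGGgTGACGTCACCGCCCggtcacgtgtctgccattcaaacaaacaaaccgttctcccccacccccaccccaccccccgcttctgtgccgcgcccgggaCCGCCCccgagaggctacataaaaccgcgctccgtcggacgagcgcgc

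Windows from 250 bases before to 50 after the start were matched for 7 of the 9 members, not for Egr1 and Ier2. Positions are counted from the annotated start, with the start itself as 0. TATAAA was found in 2 of the 7, at -33 in Fos and exactly at the annotated start in Junb, and in 12.6% of the 21263 windows of protein-coding genes. A TATAA beginning between 40 and 20 bases before the start, on the gene's strand, was found in Fos alone of the 7 and in 4.19% of all windows. TGACG was present in 5 of 7 (Fos, Fosb, Junb, Atf3 and Dusp1) and in 23.6% of windows. The full palindrome TGACGTCA, which contains TGACG on both strands, was present in Dusp1 at -143 and in 2.23% of windows. GGGCGG was present in 5 of 7, against 46.2%, and CCAAT in 3 of 7, against 38.2%. No member window held a CArG box, the serum response factor motif, against 1.52% of windows. The Jund window held none of these motifs and no TBP summit in any list. The stretch with the summits inside Jund, 819 to 992 bp downstream of the start, was not searched. Only exact CArG matches were sought. Bases more than 250 upstream of the start, and Egr1 and Ier2, were not searched. The result therefore does not say that these genes lack serum response factor sites. A match is a description of the letters and not a measured site.

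The score of a summit is the −log10 q of TBP over IgG as deposited by the authors, and it orders summits within a list. Scores of different lists are not compared as levels. The lists held 2666 summits in RT7 EtOH, 1379 in RT7 4-OHT, 3102 in RT10 EtOH and 2188 in RT10 4-OHT. Rank 1 is the highest score. Among bound members, the median summit scored above 85.2% of the list in RT7 EtOH, 65.8% in RT7 4-OHT, 93.3% in RT10 EtOH and 82.3% in RT10 4-OHT. The same medians over all bound protein-coding genes were 52.4%, 50.7%, 53.4% and 52.3%. Egr1 had the highest score of the members in each list and Fosb the next highest.

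**Figure D1:**
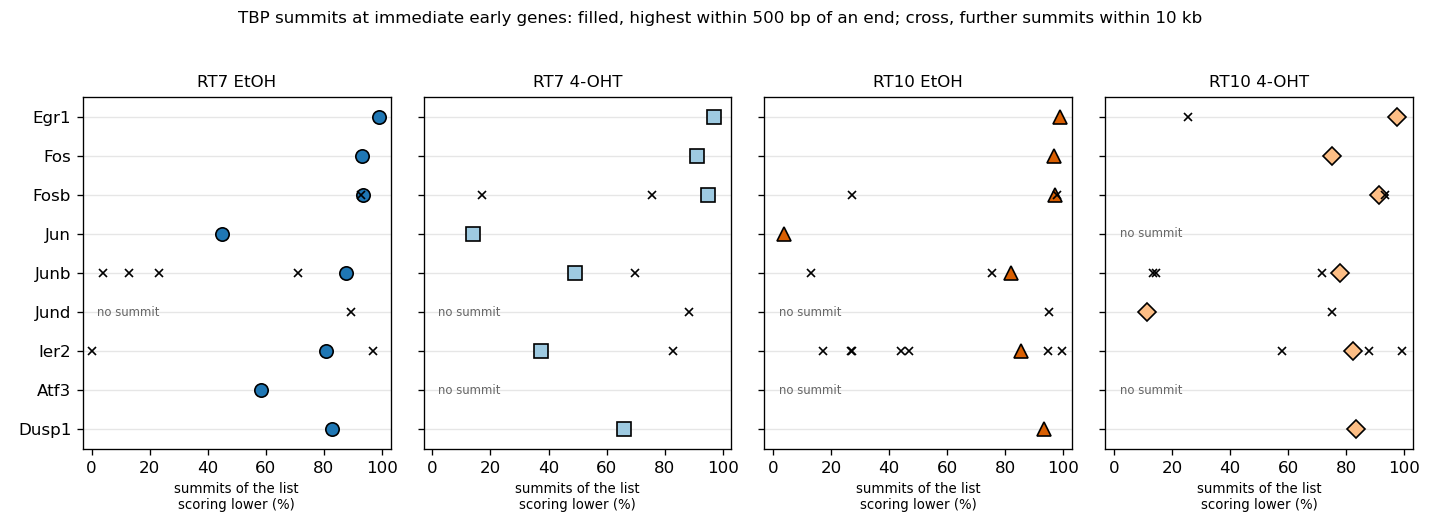
Position of each member's TBP summits within each of the 4 lists. The x axis is the percentage of the list's summits that score lower, filled symbols are the highest summit within 500 bp of either end, and crosses are further summits within 10 kb. Egr1 has the filled symbol farthest right in every list, and Jund has its higher summit as a cross in all 4.

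Among the Fos-family genes, Fos (chr12:85473890-85477274, + strand) had a single summit in every list and none further within 10 kb. Its scores were 26.8 in RT7 EtOH (rank 177), 20.1 in RT7 4-OHT (rank 116), 39.5 in RT10 EtOH (rank 101) and 11.3 in RT10 4-OHT (rank 517). Egr1 and Fosb alone scored above Fos among the members bound in RT7 EtOH, RT7 4-OHT and RT10 EtOH, whereas in RT10 4-OHT Dusp1, Ier2 and Junb did too. The summits lay 187, 122, 190 and 145 bp upstream of the start in the same order of lists, within 68 bp of each other. All 4 lay upstream of the TATAAA, and those of the EtOH lists were 3 bp apart.

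Fosb (chr7:19302696-19310118, - strand), the gene of another AP-1 subunit, had scores of 27.9 in RT7 EtOH (rank 174) and 26.4 in RT7 4-OHT (rank 67). In RT10 they were 42.3 in EtOH (rank 87) and 24 in 4-OHT (rank 185). These summits lay at -187, -116, -111 and -187 from the annotated start. A separate summit was present in all 4 lists beyond the other end of Fosb, 1848, 1882, 1797 and 1763 bp away, next to an end of the long noncoding RNA gene Gm26802 (chr7:19298260-19300793). It scored 25.6, 10.8, 48.1 and 29.1, which in both RT10 lists was above the summit at the Fosb start and in both RT7 lists below it. Weaker further summits were seen in 1 list each, inside Fosb in RT7 4-OHT (score 3.1) and at an end of Rtn2 in RT10 EtOH (4.06).

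The Jun-family genes differed from each other in where the summits lay. Jun (chr4:95049036-95052222, - strand) had the lowest score of the bound members in the 3 lists where it was bound. It scored 5.57 in RT7 EtOH (rank 1324), 2.78 in RT7 4-OHT (rank 1155) and 2 in RT10 EtOH (rank 2948), near the bottom of that list, and no summit was called within 10 kb in RT10 4-OHT. The 3 summits lay 68, 234 and 116 bp upstream of the start, and each was also within 500 bp of an end of Junos, a long noncoding RNA gene beginning beside Jun, so they belong to Jun no more than to Junos.

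Junb (chr8:84976909-84978748, - strand) had summits at both ends. The summit beyond the 3′ end, 286 to 343 bp outside the gene, was the higher in each list. It scored 19.1 in RT7 EtOH, 5.5 in RT7 4-OHT, 15.2 in RT10 EtOH and 12.3 in RT10 4-OHT. The summit upstream of the start scored 12.5 in RT7 EtOH, 5.84 in RT10 EtOH and 9.19 in RT10 4-OHT, at 90, 177 and 187 bp, and was not called in RT7 4-OHT. Among bound genes over 1000 bp long with an annotated start, the highest summit was nearer the other end in 3.09% (RT7 EtOH), 3.6% (RT7 4-OHT), 2.97% (RT10 EtOH) and 3.96% (RT10 4-OHT). Each list also held a summit 943 to 1345 bp upstream of Junb, which in RT7 4-OHT (score 8.29) was above the one at the 3′ end. A summit shared by the facing ends of Rnaseh2a, a ribonuclease H2 subunit gene, and Prdx2, which encodes a peroxiredoxin, lay 7222 to 7413 bp from Junb in the lists other than RT7 4-OHT.

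Jund (chr8:70697739-70700616, + strand) was the member where the distance rule mattered most. Inside the gene, 930 bp downstream of the annotated start in RT7 EtOH, 992 bp in RT7 4-OHT, 948 bp in RT10 EtOH and 819 bp in RT10 4-OHT, every list had a summit. Its scores were 20.6 (rank 276), 17.7 (rank 154), 32.8 (rank 150) and 11.3 (rank 517), the last equal to that of Fos. Counted with the others, it would come directly after Fos in the first 3 of these lists. The summit that made Jund bound in RT10 4-OHT lay 438 bp beyond the 3′ end, with a score of 2.62 (rank 1902), and 267 bp from an end of Iqcn. That was the summit nearest to the 500 bp limit from inside, and the nearest from outside was one 723 bp from Egr1 in RT10 4-OHT (score 3.68). With summits inside a gene counted too, 9, 8, 8 and 7 members had a summit in RT7 EtOH, RT7 4-OHT, RT10 EtOH and RT10 4-OHT. This wider rule was chosen after the data were seen. The share of all protein-coding genes under it is not given here, so these counts have no background beside them.

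**Figure D2:**
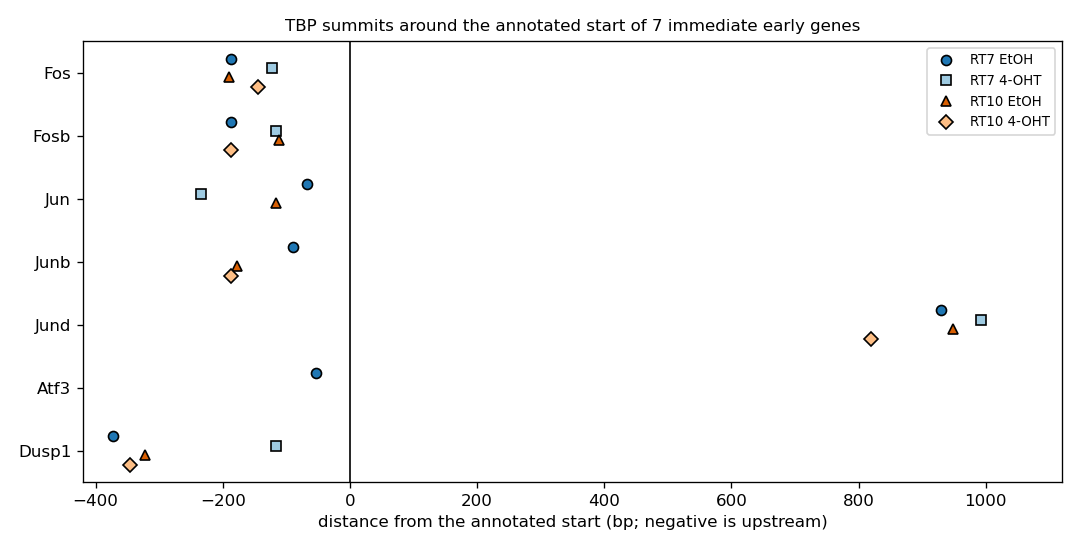
Distance of TBP summits from the annotated start, in bp along the gene, for the 7 members with a promoter window. Egr1 and Ier2 had no window here. Symbols are the 4 lists, and summits farther away, such as those at the 3′ end of Junb, are off the axis. Within 500 bp of the start the summits lie upstream, and those inside Jund lie 819 to 992 bp downstream.

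Upstream was also the usual side. Each member summit within 500 bp of an annotated start lay upstream of it, in 6 of 6 members in RT7 EtOH, 4 of 4 in RT7 4-OHT, 5 of 5 in RT10 EtOH and 4 of 4 in RT10 4-OHT. Over all protein-coding genes with a summit that near, 75.6%, 70.3%, 74.0% and 72.2% lay upstream. The members' median positions were -138.5, -119, -177 and -187, where those of all such genes were -125, -122, -122 and -122. Between EtOH and 4-OHT, the highest summits of a member were 43 to 257 bp apart in RT7 and 23 to 189 bp apart in RT10.

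Egr1 (chr18:34861207-34864956), which encodes a zinc finger factor, had scores of 53.3 in RT7 EtOH (rank 30), 30.4 in RT7 4-OHT (rank 41), 61.7 in RT10 EtOH (rank 34) and 44.2 in RT10 4-OHT (rank 55). It lay above 98.8%, 97.0%, 98.8% and 97.5% of these lists. The summits were 158, 310, 242 and 269 bp outside the lower-coordinate end of the gene, and no other gene had an end within 500 bp. The protein-coding genes bound in all 4 lists whose places in the lists were nearest to those of Egr1 were Rps26, Klf6, G3bp1, H3c6 and H2ac7. Their distances over the 4 lists were 0.56, 0.99, 1.13, 1.42 and 1.57 percentage points (Euclidean). Nearest to Fos were Cbx5 and Hnrnpa1, which share their summits (1.52 each), and Rack1 (4.02).

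Ier2 (chr8:84661331-84662852) was bound in all 4 lists but its highest nearby summit lay outside the gene. At its higher-coordinate end it scored 14 in RT7 EtOH (rank 512), 4.06 in RT7 4-OHT (rank 860), 17.5 in RT10 EtOH (rank 436) and 14 in RT10 4-OHT (rank 385). The RT10 4-OHT summit was 155 bp inside the gene, and the others were 66, 109 and 34 bp outside. A further summit 1242 to 1267 bp beyond that end, within 25 bp in all 4 lists, scored higher than the one at the end in each of them. Its scores were 38.7 (rank 85), 13.6 (rank 235), 32.4 (rank 166) and 18.8 (rank 268), and the nearest other gene, Nacc1, was 6358 to 6383 bp away. On the other side, both RT10 lists had a summit at the same base, chr8:84653232, 8099 bp from Ier2. It was among the highest of those lists (90.3 at rank 12 and 67.6 at rank 14), and the nearest RT7 summits were 2863 bp (EtOH) and 2858 bp (4-OHT) away from it.

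**Figure D3:**
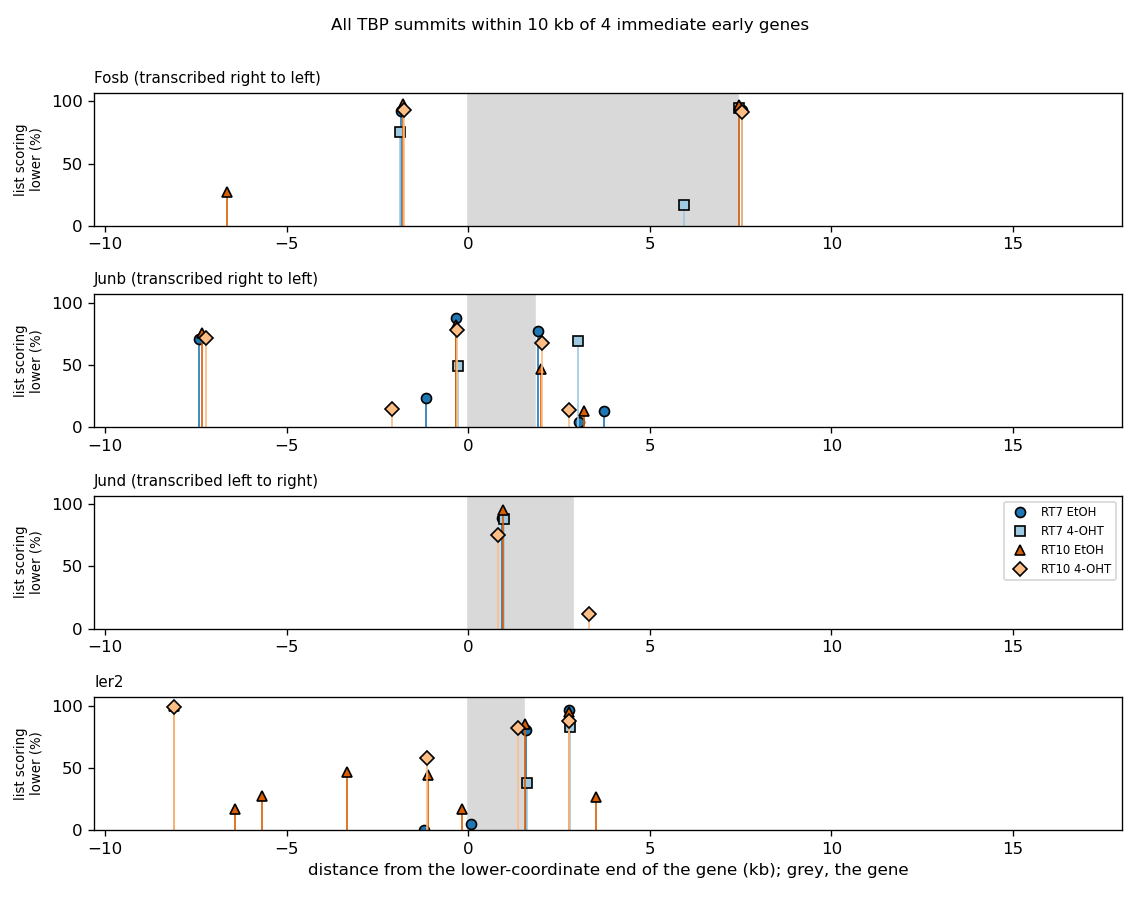
All TBP summits within 10 kb of Fosb, Junb, Jund and Ier2, with the gene in grey. The x axis is the distance in kb from the lower-coordinate end, and the height is the percentage of that list's summits scoring lower, to be read within a list. The summit next to Gm26802 beyond Fosb, the one 1242 to 1267 bp beyond Ier2 and the one inside Jund occur in all 4 lists, and the one 8099 bp from Ier2 in the RT10 lists only.

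Further summits were not a feature of every member. Of the 9, 4 had one in RT7 EtOH, 4 in RT7 4-OHT, 4 in RT10 EtOH and 5 in RT10 4-OHT, against 7.68%, 4.44%, 8.55% and 6.28% of protein-coding genes. They were Fosb, Junb, Jund and Ier2 in all 4 lists, and Egr1 in RT10 4-OHT. Merged within 250 bp, they made 17 sites, of which 4 were found in all 4 lists and 10 in 1 list only.

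Atf3 (chr1:191170296-191183333, - strand), a stress-response factor gene, had 1 summit in RT7 EtOH, 54 bp upstream of the start, with a score of 7.45 (rank 1011). No summit lay within 10 kb of it in the other 3 lists. Dusp1 (chr17:26505591-26508472, - strand) scored 14.9 in RT7 EtOH (rank 461), 7.7 in RT7 4-OHT (rank 443), 28.7 in RT10 EtOH (rank 204) and 15 in RT10 4-OHT (rank 355). The summits were 373, 323 and 346 bp upstream of the start in RT7 EtOH, RT10 EtOH and RT10 4-OHT, upstream of the stretch shown. In RT7 4-OHT it was 116 bp upstream, on the start side of the TGACGTCA, and 257 bp from the RT7 EtOH summit.

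Of 50 other immediate early genes, 16 were bound in RT7 EtOH, 10 in RT7 4-OHT, 17 in RT10 EtOH and 14 in RT10 4-OHT. The bound shares of all protein-coding genes were 5.32%, 2.74%, 5.96% and 3.87% in the same order. Those of the 50 bound in all 4 lists were Klf6, Per1, Zfp36, Btg1, Id3, Ier5, Gadd45g and Zfp36l1. Klf6, a zinc finger factor gene, led them with scores of 60.9 and 30.4 in RT7 and 58.6 and 51.4 in RT10 (EtOH, then 4-OHT), above Egr1 in 3 of the lists. Per1, a clock gene, scored 54.8, 14.1, 38.1 and 30.8, and Zfp36, which encodes an mRNA-destabilising protein, 32.1, 3.95, 14.5 and 6.33. Another 12 were bound in 1 to 3 lists: Ier3, Ier5l, Klf10, Gadd45a, Zfp36l2, Ccn2, Arc, Plk2, Id1, Id2, Rhob and Hes1. The remaining 30 were bound in none. Both lists of a line held 10 of the 16 in RT7 and 12 of the 17 in RT10. Over all protein-coding genes bound in EtOH, these shares were 44.9% and 51.6%. Among 18 genes of the upstream kinases and factors, Atf2 was bound in both EtOH lists and Map2k2 in both RT10 lists, and the others in none. Of the 18, 5.56% were bound in RT7 EtOH, 0% in RT7 4-OHT, 11.1% in RT10 EtOH and 5.56% in RT10 4-OHT. The all-gene shares to set beside these are those given above.

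Of 16 heat shock and other chaperone genes, 10 were bound in RT7 EtOH and 8 in RT7 4-OHT, with 7 in both. In RT10, 13 and 7 were bound, with 7 in both. Over all protein-coding genes, 5.32% and 2.74% were bound in RT7 and 5.96% and 3.87% in RT10 (EtOH, then 4-OHT). Of all those bound in EtOH, 44.9% in RT7 and 51.6% in RT10 were also bound in 4-OHT. Hspa8, Hsp90ab1, Hspa5 and Dnajb1 had the highest EtOH scores among the 16 in RT7 (41.7, 28.1, 21.8 and 18.2). Of 24 pluripotency genes, 9 were bound in RT7 EtOH and 4 of these in 4-OHT, and 12 and 5 in RT10, with Nanog the highest (22.7 in RT7 EtOH and 41.3 in RT10 EtOH). Whether immediate early genes differ from these groups was not tested. As a look at the labelled cell type, 5 of 8 ES cell markers were bound in RT7 EtOH and 6 in RT10 EtOH. In 4-OHT, 4 were bound in RT7 and 3 in RT10. Pou5f1 and Esrrb were bound in no list, and Sox2 only in RT10 EtOH with a low score (1.7, rank 3004). Of 7 fibroblast markers, Fn1 alone was bound, in both EtOH lists and neither 4-OHT list. Expression was not measured.

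**Figure D4:**
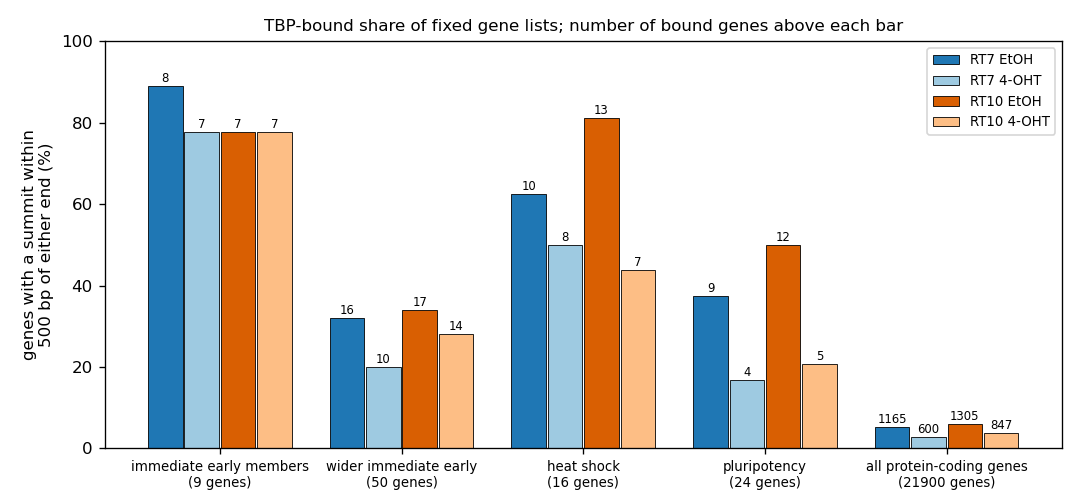
Percentage of each gene list with a TBP summit up to 500 bp from an end, for the 4 lists, and the number of bound genes above each bar. The 9 members have 7 or 8 bound in each list, and all protein-coding genes lie at 2.74% to 5.96%.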

How the data were processed

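TBP was profiled by CUT&RUN in RT7 and RT10 ES cells. Per the submitters' processing notes, cutadapt 4.0, Bowtie2 2.4.4, SAMtools 1.15.1, bedtools, deepTools and MACS2 2.2.7.1 were used with mm10; roles, thresholds and pooling are not given in the sources used here. The score deposited by the authors for each 1-base summit was taken as the −log10 q-value of MACS2. By the names of the lists, TBP was set against the IgG of the same line and treatment. The treatment label of 2 IgG libraries, those titled RT7 EtOH and RT10 4-OHT, differs from the title, which was used. They are the controls of the RT7 EtOH and RT10 4-OHT lists. Depth per library is not known and sets no stated precision here.

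Summits were matched to the ends of 49997 genes of the RefSeq table for GRCm38.p6, and to annotated starts from the RefSeq promoter windows. Each list was used on its own and no test was run, since there is 1 list per group. Members and lists were chosen with earlier results of these data known. Named genes were all members, bound genes of the wider immediate early list, and the 5 nearest to Egr1 and 3 nearest to Fos by place in the lists. Genes with an end within 500 bp of a member's summit and up to 4 genes of the comparison lists were also named. So were single genes of the upstream and cell type marker lists. Other neighbouring genes were named after their values were seen. The matching code was run on 20 simulated lists of 200 summits, planted up to 500 bp from a gene's lower-coordinate end, and all were recovered. Higher-coordinate ends were not planted. Recovery was built into that design, so it checks the code and not the bound calls. Python 3.11.15, NumPy 2.4.6, pandas 2.3.3 and matplotlib 3.10.9 were used.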

Additional observations from a re-analysis of the deposited data

How the results depend on the processing

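With 7 or 8 members bound per list, 7 kept in RT7 and 6 in RT10, the alternatives that moved a count by more than 1.5 times were these. With a score of at least 10, 3 members were bound in RT7 4-OHT and 3 were kept in RT7 (Egr1, Fos and Fosb). With a distance of 250 bp, 4 were bound in RT10 4-OHT and 4 kept in RT7, with Egr1 and Dusp1 among those lost. With annotated starts only, taken from the promoter windows of 7 members, 4 were bound in RT7 4-OHT and 4 in RT10 4-OHT. With kept meaning a 4-OHT summit within 100 bp of the highest EtOH summit, 4 were kept in RT7. The shares of all protein-coding genes under these alternatives are not given here. The other 49 alternatives, on distances of 1000 and 2000 bp, shortened lists and the comparison lists included, stayed within 1.5 times. Among these, 4 in place of 6 were kept in RT10 at 250 bp, with Egr1 and Dusp1 again lost. In the RT7 EtOH list shortened to the length of the RT7 4-OHT list, Jun (5.57) sat among the tied lowest scores and was in or out by how ties were taken. Counting summits inside genes was chosen after seeing the data. The places of members among summits at protein-coding gene ends alone gave 29 values, all within 1.5 times. No paired analysis was possible because each list carries no replicate number and no test was run; leaving out a replicate was not possible for the same reason.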
